A study of Mus musculus with 15 samples.

Results

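The 9 genes F5, F7, F10, F13a1, Thbd, Plau, Plaur, Serpinb2 and Hgfac, which serve blood coagulation and plasminogen activation, were examined in tumor-associated macrophages (TAMs). They were chosen by symbol from the 55335 genes of an RNA-seq table, and each symbol was found. The rule used no values, but the list was chosen with earlier results of these data known. Counts of members that pass therefore describe this list only. The 15 samples were TAMs sorted with CD11b and F4/80 from orthotopic liver tumors of C57BL/6 mice, grown from luciferase-expressing Hepa1-6 cells, a mouse hepatoma line, for 3 weeks. The tumor cells were control cells (control, 5 samples) or cells with lentiviral overexpression of miR-144 (5 samples) or miR-451a (5 samples). The overexpression was set in the tumor cells and not in the macrophages, and the labels give all 15 samples as untreated and state no age of the mice. The comparisons asked how the miRNAs in the tumor cells bear on the RNA of the macrophages beside them. The labels do not say whether the samples of a group came from separate mice, so p-values measure the spread between these samples only. The study states a smaller n per group for this RNA-seq than the number of samples tested here, and how the samples relate to that n is not given in the sources used here. If samples of a group share a mouse or a preparation, the p-values are too small.

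Coagulation factor VII (F7), together with tissue factor, starts the extrinsic pathway and activates factor X (F10), which with its cofactor factor V (F5) turns prothrombin into thrombin. Thrombin makes fibrin, and factor XIII, whose A subunit is encoded by F13a1, cross-links it, whereas thrombomodulin (Thbd) binds thrombin and turns it toward activation of the anticoagulant protein C. Urokinase (Plau), held at the cell surface by its receptor (Plaur), turns plasminogen into plasmin, the protease that dissolves fibrin, and Serpinb2 (plasminogen activator inhibitor type 2) inhibits urokinase. Hgfac is a serine protease related to factor XII that activates the precursor of hepatocyte growth factor. Plasma coagulation factors come mostly from hepatocytes, but macrophages can make F7, F10 and F13a1 themselves.

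The groups are set by the miRNAs that the tumor cells overexpressed, so their mature sequences are shown, with the seed (bases 2 to 8) in capitals. They were taken from RefSeq (mouse build GRCm38.p6) and lie on the plus strand at chr11:78073010-78073032, chr11:78073047-78073066 and chr11:78073186-78073207 in the order given. The labels do not name the arm of miR-144, so both arms are given. The 3 seeds differ from each other.
mmu-miR-144-5p: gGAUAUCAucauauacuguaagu
mmu-miR-144-3p: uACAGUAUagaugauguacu
mmu-miR-451a: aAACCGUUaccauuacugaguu

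FPKM relates the fragments of a gene to its transcript length and to the sequencing depth, so that levels of different genes can be compared. Low values implied 15.5 to 30.3 M fragments per sample, with group medians of 23.9 M (control), 22.4 M (miR-144) and 21.4 M (miR-451a). A value worth 3 fragments was taken as the floor of what this depth shows, for counting error only. All 15 samples lay above the floor for 8 of the 9 genes, and the exception was Hgfac. Differences between groups were tested with limma on log2(FPKM + 1) over the 29540 genes above 0 in a sample, with Benjamini-Hochberg adjustment and a threshold of 0.05, and these differences understate changes of genes near or under 1 FPKM. The 6 macrophage markers (Adgre1, Itgam, Csf1r, Cd68, Mertk and Fcgr1) summed to between 1978 and 2253 FPKM in every sample, although the markers differed between the groups. Cd68 was lower with the miRNAs (means of 1444, 919 and 910 FPKM for control, miR-144 and miR-451a), and the other 5 were higher. Among the latter were the genes of the sorted proteins, Adgre1 for F4/80 (137, 361 and 354 FPKM) and Itgam for CD11b (25.5, 63.8 and 53.4 FPKM), and Fcgr1 (18.01, 122 and 118 FPKM), Csf1r (401, 691 and 693 FPKM) and Mertk (40.6, 61.2 and 62.7 FPKM). The part of these differences in the values of the 9 genes was not tested. In contrast, 6 of 7 hepatocyte markers, Alb and Fgb among them, were listed at 0 in all 15.

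F7 and F10 were the members that fell most. They went from the highest levels among the 9 genes in control TAMs to low levels in the TAMs of either miRNA group. F13a1 moved the other way, from a low level to one of the highest among the 9 genes, and Plaur fell to a lesser degree. Of the 9 genes, 8 passed the test with miR-144 (3 higher and 5 lower), where 32.8% of all tested genes passed (23.1% higher and 9.65% lower). With miR-451a, 7 of 9 passed (3 higher and 4 lower), where 34.2% of all tested genes passed (24.5% higher and 9.69% lower). With samples scaled to an equal median, 1 member was higher and 5 were lower with miR-144, and 1 was higher and 4 were lower with miR-451a, because Plau and Serpinb2 no longer passed. Under that scaling 16.2% of all tested genes were higher and 13.8% lower with miR-144, and 16.9% were higher and 14.3% lower with miR-451a. Between miR-451a and miR-144, 0 of 9 passed in limma, as did 0% of all genes (smallest adjusted p = 0.167), while 1459 of 29540 genes had an unadjusted p under 0.05. Passing was more common among the 11419 genes whose mean reached 1 FPKM, at 62.7% with miR-144 (44.1% higher and 18.6% lower) and 64.2% with miR-451a (45.3% higher and 18.8% lower). To these belong 6 of the 9 genes, and of the 6, 5 passed in each comparison with control (2 higher and 3 lower). The 2 comparisons share their control samples. In these bulk samples, a lower value can stem from fewer cells of a type or from less RNA per cell, and these cannot be told apart.

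The miRNA samples and the control samples did not overlap for 6 of the 9 genes with miR-144 (F5, F7, F10, F13a1, Plaur and Hgfac), where this held for 26.9% of all tested genes. With miR-451a it held for 4 (F7, F10, F13a1 and Plaur), against 27.9% of all tested genes, and between the miRNA groups for 0, against 0.657%. Among genes whose mean reached 1 FPKM, these shares of all genes were 53.9%, 55.2% and 0.849%. On the log2(FPKM + 1) scale, the 9 genes had a median difference of -0.11 (miR-144) and -0.01 (miR-451a), against 0.01 and 0.02 over all tested genes.

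**Figure D1:**
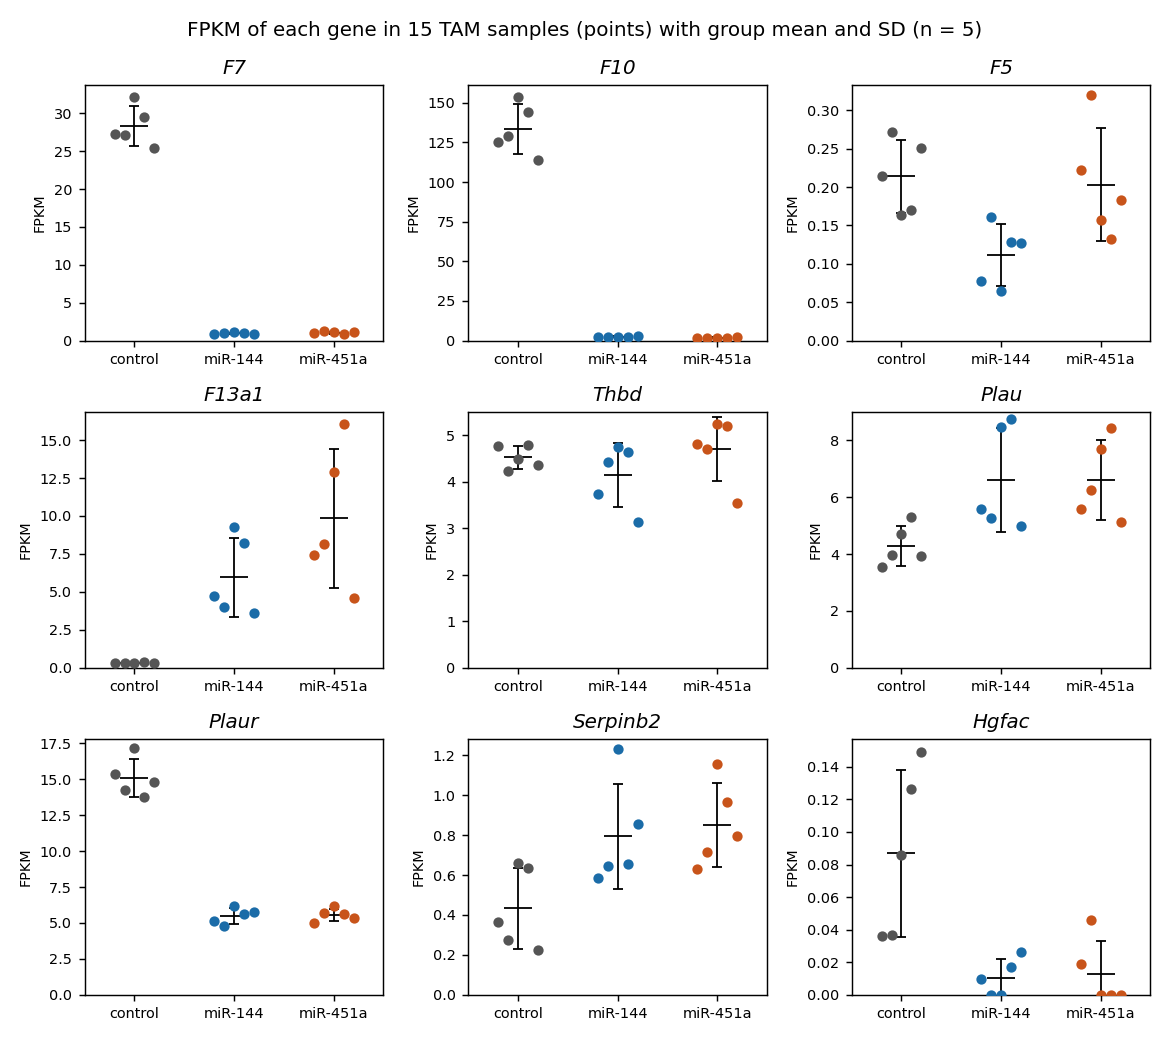
FPKM (vertical axis, linear, a scale of its own for each gene) of the 9 genes in control, miR-144 and miR-451a TAMs. Points are samples, ordered from left to right by sample number, and lines are the mean and SD of 5 samples. F7, F10 and Plaur lie lower and F13a1 higher in all 10 miRNA samples than in all control samples, whereas Thbd overlaps between all 3 groups.

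Among the coagulation factors, F7 (ENSMUSG00000031443) and F10 (ENSMUSG00000031444) are neighbours. In the GENCODE M21 annotation (GRCm38), F7 spans chr8:13026034-13035809 and F10 spans chr8:13037308-13056676, both on the plus strand, with 1498 bases and 0 other annotated genes between them. F7 had 27.3, 27.2, 32.2, 29.5 and 25.4 FPKM in control samples 1 to 5. In the same order it had 0.850, 1.02, 1.07, 0.967 and 0.883 FPKM with miR-144 and 0.979, 1.20, 1.11, 0.846 and 1.08 FPKM with miR-451a. All 10 miRNA samples lay far below the lowest control sample, and the miRNA groups overlapped each other. The group means were 28.3 ± 2.61, 0.957 ± 0.0904 and 1.04 ± 0.136 FPKM (SD, n = 5), which is 29.6-fold lower with miR-144 and 27.1-fold lower with miR-451a. On the log2(FPKM + 1) scale these are differences of -3.90 and -3.84 with a standard error of 0.06 (limma adjusted p = 6.58e-15 and 8.13e-15). Between 28.3 and 47.8 implied fragments stood behind each miRNA value of F7, against 1126 to 1452 in the control samples.

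F10 was the most abundant of the 9 genes in control TAMs, with 125, 129, 154, 144 and 114 FPKM in samples 1 to 5. It had 1.99, 2.42, 2.29, 2.09 and 2.70 FPKM with miR-144 and 1.66, 1.73, 1.49, 1.62 and 2.36 FPKM with miR-451a. No miRNA sample came near a control sample, and 4 of the 5 miR-451a samples lay below all miR-144 samples. The means of 133 ± 15.7, 2.30 ± 0.280 and 1.77 ± 0.341 FPKM (SD, n = 5) correspond to 58.0-fold and 75.3-fold lower levels with miR-144 and miR-451a. The log2 differences of F10 were -5.34 and -5.60 (standard error 0.09, limma adjusted p = 1.60e-14 and 8.66e-15). By this measure F10 was 9th and F7 21st from the lowest of 29540 genes with miR-144, and F10 was 8th and F7 24th with miR-451a. A small share of the F10 transcript (1.92% of its 50-base stretches) also occurs in other genes, mostly Rgs7bp, and F7 shares none.

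The liver is a main source of F7 and F10, and the tumors grew there. The 7 hepatocyte markers summed to between 0.0120 and 0.0353 FPKM in the control samples, to between 0.00803 and 0.0284 with miR-144 and to between 0.00768 and 0.0415 with miR-451a, all of it Apob. The other 6 (Alb, Apoa1, Ttr, Serpina1a, Apoc3 and Fgb) were listed at 0 in all 15 samples. Prothrombin (F2), F11, F12, F13b, the fibrinogen genes Fga, Fgb and Fgg, plasminogen (Plg) and protein C (Proc), all textbook hepatocyte products, were listed at 0 as well. Other hepatocyte products were above 0, among them F9 (means of 0.0582, 0.252 and 0.262 FPKM), which passed as higher in both comparisons, and Klkb1, Kng1 and Serpinc1, with means of at most 0.0964 FPKM in any group, which did not pass. Proz, encoding protein Z, a vitamin K-dependent plasma protein made in the liver, was higher in level than F9, Klkb1, Kng1 and Serpinc1 and was named after its values were seen. Its means were 4.13 ± 2.05, 1.003 ± 0.227 and 0.925 ± 0.0941 FPKM (SD, n = 5), and it passed as lower in both comparisons (log2 differences -1.20 and -1.25, limma adjusted p = 0.00811 and 0.00590), the direction of F7 and F10. Its control samples overlapped those of either miRNA group. The Ensembl number of Proz (ENSMUSG00000031445) directly follows that of F10 (ENSMUSG00000031444), but its position was not looked up. Any part of F10 fragments in the values of Proz was not tested.

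Because F7 and F10 moved together, and F13a1 and Plaur moved most among the other members, their promoters are shown, 250 bases before to 50 after the start, 5′ to 3′ on the strand of the gene, from RefSeq (GRCm38.p6). Promoters were found for 7 of the 9 genes and not looked up elsewhere for Thbd and Plau. The stretches are chr8:13025784-13026083 (plus) for F7, chr8:13037058-13037357 (plus) for F10, chr13:37050195-37050494 (minus) for F13a1 and chr7:24462233-24462532 (plus) for Plaur. Capitals mark AGGTCA, a nuclear receptor half-site (TGACCT when read on the strand of the gene from the other side), GAGGAA, a purine box of the PU.1 type (TTCCTC from the other side), and TGANTCA, an AP-1 site, searched on both strands and chosen after the sequences and values were known. No marked stretch overlaps another.
F7: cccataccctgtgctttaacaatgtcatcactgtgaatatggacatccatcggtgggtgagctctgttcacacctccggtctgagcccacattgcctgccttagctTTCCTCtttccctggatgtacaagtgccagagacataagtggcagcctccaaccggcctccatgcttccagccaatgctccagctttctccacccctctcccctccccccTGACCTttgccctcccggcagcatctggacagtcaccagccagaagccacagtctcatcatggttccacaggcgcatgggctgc
F10: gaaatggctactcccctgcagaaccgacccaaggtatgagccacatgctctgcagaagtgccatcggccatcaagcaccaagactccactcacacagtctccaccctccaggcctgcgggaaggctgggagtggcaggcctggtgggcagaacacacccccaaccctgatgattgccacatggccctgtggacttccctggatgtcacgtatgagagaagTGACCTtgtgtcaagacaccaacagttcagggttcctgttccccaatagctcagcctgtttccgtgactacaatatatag
F13a1: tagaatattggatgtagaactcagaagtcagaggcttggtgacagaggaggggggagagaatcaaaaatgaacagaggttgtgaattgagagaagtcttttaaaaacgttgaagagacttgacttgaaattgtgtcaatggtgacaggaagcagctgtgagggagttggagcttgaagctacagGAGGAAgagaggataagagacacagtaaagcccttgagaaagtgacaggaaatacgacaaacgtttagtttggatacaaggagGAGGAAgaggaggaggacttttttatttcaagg
Plaur: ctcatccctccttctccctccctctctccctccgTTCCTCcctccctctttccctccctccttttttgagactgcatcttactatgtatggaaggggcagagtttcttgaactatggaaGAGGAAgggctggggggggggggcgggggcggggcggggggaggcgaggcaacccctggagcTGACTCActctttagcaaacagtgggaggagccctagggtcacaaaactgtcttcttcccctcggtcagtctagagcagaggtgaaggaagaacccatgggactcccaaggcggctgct

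The half-site began 34 bases before the start in F7 (position -34) and at position -30 in F10, in the same orientation, and it also occurred at -57 in F5 and at -194 in Hgfac. Of all 32851 RefSeq promoters of this length, 16.3% hold it. The AP-1 letters occurred at -69 in Plaur. In Serpinb2 they occurred at -94 in the first annotated promoter and at -181 in the second. Of all promoters, 7.81% hold them. The purine box occurred in F7, in Plaur and in both annotated promoters of F13a1, and 28.3% of all promoters hold it. These are matches of letters only.

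F5 (ENSMUSG00000026579, chr1:164151838-164220277, plus strand) was expressed at a low level throughout. It had 0.215, 0.271, 0.164, 0.170 and 0.25 FPKM in control samples 1 to 5, 0.0770, 0.161, 0.0642, 0.129 and 0.127 with miR-144 and 0.223, 0.320, 0.157, 0.132 and 0.183 with miR-451a. The 5 miR-144 samples lay just below all control samples, whereas the miR-451a samples spread across the control range. The difference on the log2(FPKM + 1) scale was -0.13 with miR-144 (standard error 0.04, limma adjusted p = 0.0263) and -0.01 with miR-451a (limma adjusted p = 0.846, 95% confidence interval -0.10 to 0.07). Between 10.7 and 21.4 implied fragments stood behind each miR-144 value of F5. Its call with miR-144 was lost without control replicate 2 or 5 or miR-144 replicate 1 or 3 (adjusted p from 0.0628 to 0.0689 in limma). An annotated gene on either strand overlaps F5, so its values are uncertain as far as fragments of those genes were counted with it.

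F13a1 (ENSMUSG00000039109, chr13:36867178-37050244, minus strand) rose in both miRNA groups. Control samples 1 to 5 had 0.328, 0.335, 0.310, 0.360 and 0.295 FPKM. The miR-144 samples had 4.72, 3.99, 9.30, 8.19 and 3.58 FPKM and the miR-451a samples 7.46, 8.18, 12.9, 16.1 and 4.59 FPKM. All 10 miRNA samples were above every control sample, the control samples were close to each other, and samples 3 and 4 were the highest of either miRNA group. The mean went from 0.325 ± 0.0247 FPKM (SD, n = 5) to 5.95 ± 2.61 with miR-144 and 9.84 ± 4.58 with miR-451a, 18.3-fold and 30.2-fold higher. The log2 differences were 2.31 and 2.92 (standard error 0.28, limma adjusted p = 1.35e-05 and 1.15e-06), the 48th and 14th highest of 29540 genes. With miR-451a, F13a1 was 0.61 above miR-144 on that scale, which did not pass (limma adjusted p = 0.909, exact permutation p = 0.151). The annotation places 2 antisense genes within F13a1, and whether the counting used strand is not given in the sources used here.

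F13a1 is also a known platelet and monocyte transcript. The 9 platelet and megakaryocyte markers summed to between 29.6 and 38.5 FPKM in control samples, between 11.5 and 17.97 with miR-144 and between 11.2 and 19.7 with miR-451a. The lower sum came from Itgb3 (means of 18.6, 2.48 and 2.45 FPKM) and Pf4 (12.5, 6.65 and 7.32 FPKM), while 6 of the 9 markers (Ppbp, Itga2b, Gp9, Gp1ba, Gp5 and Treml1) had higher means in both miRNA groups, the direction of F13a1. Of these, Treml1 had means of 1.62, 2.41 and 2.85 FPKM, Ppbp 0.408, 0.763 and 0.988 FPKM and Gp1ba 0.301, 0.623 and 0.613 FPKM, and Gp9 and Gp5 stayed under 0.4 FPKM in all samples. Within groups, Pf4 and F13a1 were high in the same miRNA samples. Pf4 had 8.77 and 10.9 FPKM in miR-144 samples 3 and 4 and at most 4.82 in the others, and 11.1 and 12.8 FPKM in miR-451a samples 3 and 4 and at most 4.90 in the others. In control samples 3 and 4, Pf4 was also highest (15.5 and 16.9 FPKM), while F13a1 there was 0.310 and 0.360 FPKM. The 5 monocyte markers summed to between 47.9 and 60.3 FPKM in the control group, between 42.4 and 66.1 with miR-144 and between 44.6 and 80.0 with miR-451a, mostly Fn1 (means of 53.0, 51.3 and 54.2 FPKM). Vcan, Ccr2 and Ly6c2 had higher means in both miRNA groups, with 1.34, 2.94 and 2.84 FPKM for Vcan, 0.161, 1.05 and 1.39 FPKM for Ccr2 and 0.00617, 0.117 and 0.164 FPKM for Ly6c2. The 6 Kupffer cell markers summed to between 3.39 and 3.84, 17.2 and 50.2, and 16.1 and 47.5 FPKM in the same order, mostly Cd5l, with 5 of the 6 higher on average in both miRNA groups and Clec4f listed at 0 in all samples. The 7 markers of peritoneal cavity macrophages, which share Cd5l with the Kupffer cell list, summed to between 5.29 and 5.55 FPKM in control samples, between 19.9 and 51.0 with miR-144 and between 18.6 and 49.6 with miR-451a. Cd5l made up most of the sum in the miRNA groups (means of 3.40, 29.8 and 27.1 FPKM), 5 of the 7 were higher on average in both miRNA groups, and Gata6, a defining factor of these cells, was near 0 (means of 0.0486, 0.0171 and 0.0103 FPKM). The part of these cells in the values of F13a1 was not tested.

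**Figure D2:**
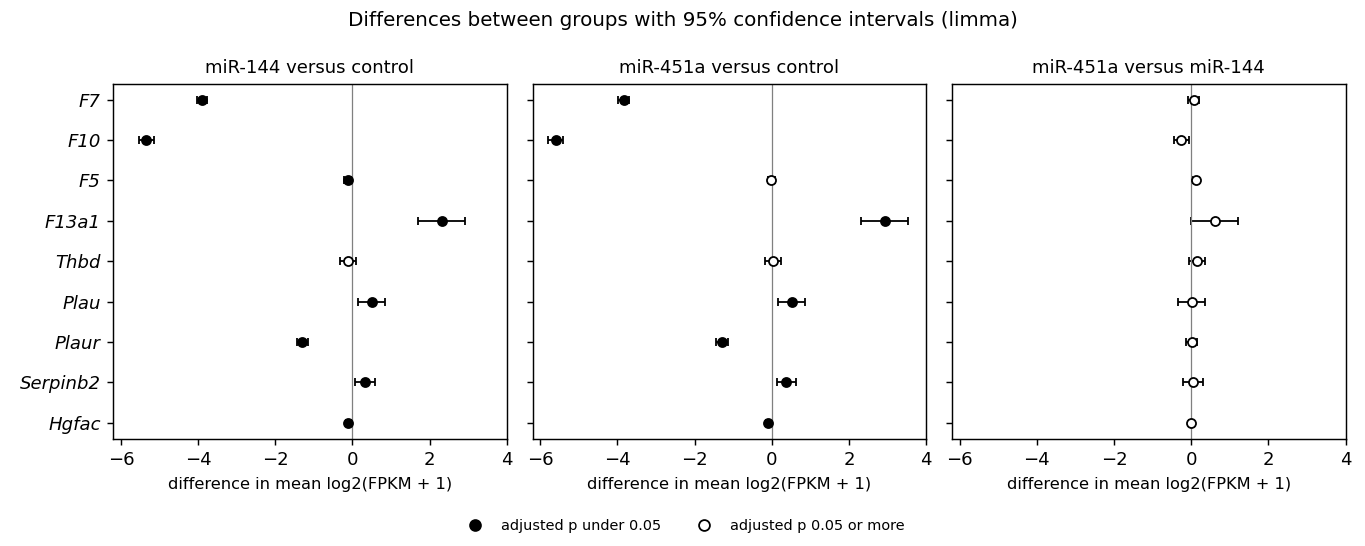
Difference in mean log2(FPKM + 1) between groups (horizontal axis, log2 units) for each of the 9 genes, with 95% confidence intervals from limma, for miR-144 versus control, miR-451a versus control and miR-451a versus miR-144. Filled points passed an adjusted p of 0.05. F7 (-3.90 and -3.84) and F10 (-5.34 and -5.60) lie far to the left and F13a1 (2.31 and 2.92) to the right in the first 2 panels, and no point is filled in the third.

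Thbd (ENSMUSG00000074743, chr2:148404466-148408188, minus strand), the anticoagulant receptor of the list, did not pass the test. It had 4.76, 4.22, 4.50, 4.79 and 4.35 FPKM in control samples 1 to 5, 3.73, 4.43, 4.75, 4.65 and 3.13 with miR-144 and 4.82, 4.70, 5.24, 5.19 and 3.55 with miR-451a. The 3 groups overlapped, and sample 5 was the lowest of either miRNA group. The difference was -0.11 with miR-144 (95% confidence interval -0.33 to 0.10, limma adjusted p = 0.444). With miR-451a it was 0.04 (95% confidence interval -0.17 to 0.25, limma adjusted p = 0.834), and its sign turned under 3 other scalings. Changes of Thbd within these intervals remain compatible with these samples.

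Of the plasminogen activation genes, Plau and Plaur, the protease and its receptor, moved in opposite directions. Plaur (ENSMUSG00000046223, chr7:24462484-24475968, plus strand) had 15.4, 14.2, 17.2, 13.8 and 14.8 FPKM in control samples 1 to 5. It had 5.11, 4.82, 6.21, 5.65 and 5.75 FPKM with miR-144 and 5.0, 5.72, 6.16, 5.60 and 5.32 FPKM with miR-451a. The highest miRNA sample had 6.21 FPKM and the lowest control sample 13.8 FPKM, so the groups did not overlap. The means of 15.1 ± 1.32, 5.51 ± 0.548 and 5.56 ± 0.438 FPKM (SD, n = 5) were 2.73-fold lower with miR-144 and 2.71-fold lower with miR-451a. The log2 differences were -1.30 and -1.29 (standard error 0.07, limma adjusted p = 1.50e-09 and 1.56e-09).

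Plau (ENSMUSG00000021822, chr14:20836660-20843385, plus strand) had 3.53, 3.96, 4.71, 5.31 and 3.92 FPKM in control samples 1 to 5, 5.58, 5.27, 8.48, 8.73 and 4.98 with miR-144 and 5.59, 6.25, 7.70, 8.44 and 5.11 with miR-451a. Samples 3 and 4 were the highest of all 3 groups, and only control sample 4 reached into the range of the miRNA samples. The mean was 1.54-fold that of control in either miRNA group (4.29 ± 0.712, 6.61 ± 1.84 and 6.62 ± 1.41 FPKM, SD, n = 5). The log2 differences were 0.50 with miR-144 and 0.52 with miR-451a (standard error 0.16, limma adjusted p = 0.0278 and 0.0228). Over all genes whose mean reached 1 FPKM, the median difference was 0.13 in the first comparison and 0.14 in the second. Once the samples were scaled to an equal median, Plau differed by 0.37 and 0.38 in the same direction and no longer passed (limma adjusted p = 0.114 and 0.105), as with median centring and quantile normalization. The call was also lost when control replicate 1, 2 or 5 or miR-144 replicate 3 or 4 was left out with miR-144, and control replicate 1 or miR-451a replicate 3 or 4 with miR-451a (adjusted p from 0.0578 to 0.0742 in limma).

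**Figure D3:**
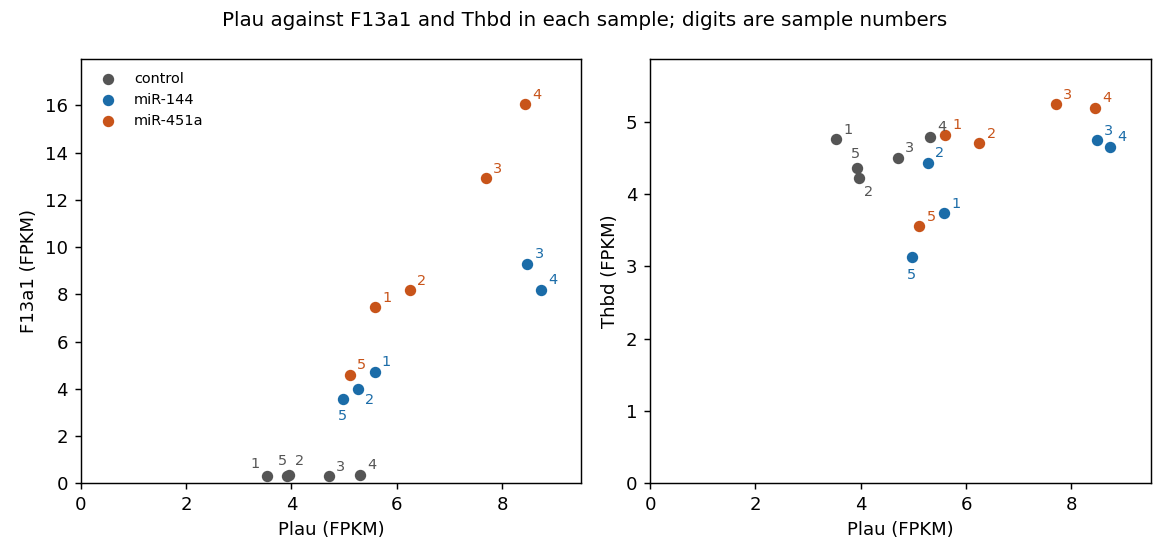
Plau (horizontal axis, FPKM) against F13a1 (left) and Thbd (right, both vertical axes in FPKM) in each of the 15 samples, with the sample number beside each point. In both miRNA groups, samples 3 and 4 are highest in Plau, F13a1 and Thbd and sample 5 is lowest in all 3 genes, while control samples stay under 0.4 FPKM in F13a1 at any level of Plau.

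Within the miRNA groups, Plau, F13a1 and Thbd ranked the samples alike at their ends, with samples 3 and 4 as the highest pair and sample 5 as the lowest sample for each gene, as the plot of Plau against F13a1 and Thbd shows. The control group kept this order for Plau at its upper end and not for F13a1, whose values there ranged from 0.295 to 0.360 FPKM. F7 and F10 did not rank the samples in this way, and their highest pair was samples 3 and 4 in the control group only. The labels do not say that a number marks a shared mouse, litter or day.

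Serpinb2 (ENSMUSG00000062345, chr1:107511423-107535478, plus strand), the urokinase inhibitor, was low in all groups. Control samples 1 to 5 had 0.367, 0.275, 0.660, 0.636 and 0.226 FPKM, the miR-144 samples 0.588, 0.644, 1.23, 0.656 and 0.853 and the miR-451a samples 0.628, 0.713, 1.16, 0.966 and 0.793. Control samples 3 and 4 lay within the range of the miRNA samples. The means were 0.433 ± 0.203, 0.794 ± 0.263 and 0.851 ± 0.211 FPKM (SD, n = 5), 1.83-fold and 1.97-fold that of control. The log2 differences were 0.32 and 0.37 (standard error 0.12, limma adjusted p = 0.0450 and 0.0209), and with samples scaled to an equal median they were 0.27 and 0.31 and did not pass (limma adjusted p = 0.112 and 0.0606). It did not pass with quantile normalization (limma adjusted p = 0.221 and 0.140) or median centring (limma adjusted p = 0.171 and 0.0996) either, nor for miR-144 in a fit of only the compared groups (limma adjusted p = 0.0636) or in an exact permutation test (p = 0.0556). The call with miR-144 was lost when control replicate 1, 2 or 5, miR-144 replicate 3 or 5 or miR-451a replicate 2, 4 or 5 was left out, and that with miR-451a when control replicate 2, control replicate 5 or miR-451a replicate 3 was left out (adjusted p from 0.0521 to 0.112 in limma). Serpinb10 overlaps Serpinb2 on the same strand and was at or near 0 in all groups.

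Hgfac (ENSMUSG00000029102, chr5:35041509-35048461, plus strand) stood at the limit of detection. It had 0.0361, 0.0366, 0.0856, 0.127 and 0.149 FPKM in control samples 1 to 5. With miR-144 it had 0.00945, 0.0171 and 0.0266 FPKM in samples 1, 4 and 5 and was listed at 0 in 2 samples, and with miR-451a it had 0.0189 and 0.0460 FPKM in samples 1 and 2 and was listed at 0 in 3. Only 3 of 5 control samples and 0 of 10 miRNA samples exceeded the floor of 3 fragments. The log2 differences were -0.10 in either comparison (standard error 0.03, limma adjusted p = 0.00655 and 0.00766), which rest on at most 8.82 implied fragments in a sample. No fold is given, because all miRNA samples were under the floor. The study shows Hgfac among pro-tumor genes in a heatmap of these TAMs, so that its direction is not independent evidence.

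The order of levels among the 9 genes changed between the groups. In control TAMs, F10 was highest, followed by F7 and Plaur, each without overlap with the next. Thbd and Plau came next and overlapped each other, then Serpinb2, F13a1, F5 and Hgfac, where Serpinb2 overlapped both F13a1 and F5. With miR-144, Plau, F13a1 and Plaur led and overlapped each other, followed by Thbd, which overlapped F13a1 but neither Plau nor Plaur. F10 came next without overlap, then F7 and Serpinb2, which overlapped, F5 and Hgfac. With miR-451a, F13a1 had the highest mean, but F13a1, Plau, Plaur and Thbd all overlapped each other, and without overlap with Thbd, F10, F7, Serpinb2, F5 and Hgfac followed as with miR-144.

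Between miR-451a and miR-144, none of the 9 genes passed in limma (adjusted p from 0.905 to 1). F10 was 0.25 lower (-0.25, 95% confidence interval -0.45 to -0.06) and F5 0.11 higher (95% confidence interval 0.02 to 0.20) with miR-451a, and an exact permutation test of each alone gave an unadjusted two-sided p = 0.0317 for both genes, where the smallest possible is 0.00794. For F7 the difference was 0.06 (95% confidence interval -0.07 to 0.19), and for Plaur it was 0.01 (95% confidence interval -0.13 to 0.16). The interval for Plau ran from -0.34 to 0.37. That for F13a1 ran from 0.000484 to 1.22 and so held positive values only, as for F5. The exact permutation test of F13a1 gave an unadjusted p = 0.151. Differences within these intervals remain compatible with these samples.

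The genes whose log2(FPKM + 1) followed a member most closely over the 15 samples are given as a description by Pearson's r, first over all samples and then after removal of the group means. The samples form groups, so the first value mostly restates the group difference. For F7 they were Chil3 (0.999 and 0.733), Retnla (0.999 and 0.682) and Rnase2a (0.999 and 0.661), and for F10 they were Hk3 (0.999 and 0.746), Atp6v1b2 (0.999 and 0.717) and Ahnak2 (0.999 and 0.583). For Plaur they were Pkdcc (0.993 and 0.723), Scly (0.993 and 0.814) and Dok2 (0.992 and 0.747). For F13a1 they were Gpr34 (0.995 and 0.982), Klf3 (0.985 and 0.929) and Chp2 (0.984 and 0.939), which tracked it within groups as well. Gpr34, a G protein-coupled receptor, had means of 0.135, 6.18 and 8.55 FPKM. For Plau they were Ms4a7 (0.974 and 0.971), Wfdc17 (0.972 and 0.953) and Gab1 (0.964 and 0.929), and for Thbd they were Wdsub1 (0.866 and 0.843), Myo9a (0.837 and 0.847) and Aldh7a1 (0.803 and 0.854).

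Beside the 9 genes, 59 other genes of coagulation, its inhibitors, plasminogen activation and the hepatocyte growth factor pathway were examined. In all 15 samples 12 of them were listed at 0, and 47 were tested. With miR-144, 22 passed in limma (8 higher and 14 lower) and with miR-451a 21 passed (9 higher and 12 lower), while 0 passed between the miRNA groups. Of all tested genes, 32.8% passed with miR-144 (23.1% higher and 9.65% lower) and 34.2% with miR-451a (24.5% higher and 9.69% lower). The counts of the smaller lists below stand against these same shares. With samples scaled to an equal median the splits of the 47 genes were 7 higher and 17 lower, and 8 higher and 17 lower. Under that scaling 16.2% and 16.9% of all tested genes were higher and 13.8% and 14.3% lower. With median centring the splits were 4 higher and 35 lower, and 4 higher and 33 lower. Median centring also raised the share of all tested genes that were lower to 54.1% and 55.5%, with 14.0% and 14.4% higher. The median difference over the 47 genes was -0.01 in either comparison with control, near that of all tested genes (0.01 and 0.02).

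Among the other coagulation factors and fibrinogen, 6 of 13 were above 0 in a sample, and 3 of these passed in each comparison, 2 higher and 1 lower. The higher genes, named after their values were seen, were F9, given above, and F8 (0.0459, 0.0852 and 0.0821 FPKM), both low in all groups. Vwf, von Willebrand factor, which tethers platelets and carries factor VIII, fell from 43.5 ± 1.86 FPKM (SD, n = 5) to 7.10 ± 0.783 with miR-144 and 6.94 ± 0.690 with miR-451a. These means were 6.13-fold and 6.27-fold lower (log2 differences -2.46 and -2.49, limma adjusted p = 2.42e-12 and 2.04e-12). Tissue factor (F3), the partner of F7, had means of only 0.109, 0.121 and 0.183 FPKM and did not pass. Vwf is a gene of endothelial cells and platelets. The 7 endothelial markers summed to between 2.79 and 3.50 FPKM in the control group, 3.76 and 4.63 with miR-144 and 3.60 and 5.59 with miR-451a, mostly Kdr, while Pecam1, Cdh5, Tie1 and Tek each stayed under 0.3 FPKM. On average 6 of these 7 (all but Pecam1) were higher in both miRNA groups. Of the platelet markers, Itgb3 and Pf4 were lower with either miRNA, as was Vwf, and 6 of 9 were higher, as given above. The part of these cells in the values of Vwf was not tested.

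Of the anticoagulants, 3 of 8 tested genes passed in each comparison, all lower (Proz, given above, Procr and, named after its values were seen, Tfpi2). Procr, the endothelial protein C receptor, which was named after its values were seen, had means of 4.72, 1.56 and 1.40 FPKM (log2 differences -1.17 and -1.26, limma adjusted p = 8.04e-08 and 3.35e-08). Pros1, encoding the protein C cofactor protein S, also named after its values were seen, had means of 18.2, 18.4 and 18.5 FPKM and did not pass. Among the 4 protease-activated receptors, 1 passed in each comparison and was lower, the thrombin receptor F2r.

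Of 8 tested genes of plasminogen activation and its inhibitors, 4 passed in each comparison, 2 higher and 2 lower. Anxa2 and S100a10, which form a plasminogen receptor at the cell surface, both fell. Anxa2 went from 191 FPKM to 111 with miR-144 and 110 with miR-451a (log2 differences -0.77 and -0.79) and S100a10 from 77.2 to 57.4 and 58.5 FPKM (log2 differences -0.42 and -0.39, all 4 adjusted p at most 0.000108 in limma). Serpine2, one of the higher genes and named after its values were seen, had means of 2.13, 3.94 and 3.75 FPKM. Its log2 differences were 0.66 and 0.60 (limma adjusted p = 5.43e-06 and 1.25e-05). Lrp1, the endocytic receptor that clears urokinase with its inhibitor, had means of 162, 156 and 152 FPKM and did not pass.

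Of the 3 vitamin K cycle genes, which enable the modification that F7 and F10 need, 1 passed in the comparison of miR-144 with control and 0 in that of miR-451a. Vkorc1 had means of 26.2, 16.6 and 17.9 FPKM (limma adjusted p = 0.0224 and 0.0507), and its values are uncertain, since 50.5% of its 50-base stretches also occur in the overlapping gene Gm21974. Among the 8 genes around hepatocyte growth factor, 6 passed in each comparison, 3 higher and 3 lower. Hgf itself rose from 2.54 FPKM to 3.71 and 3.75 (log2 differences 0.41 and 0.43, limma adjusted p = 3.77e-05 and 2.59e-05), and Hpn, hepsin, a protease that like Hgfac activates its precursor, went from 0.437 to 1.31 and 1.25 FPKM. The third higher gene was St14, matriptase, another membrane protease, with 0.0877, 0.213 and 0.253 FPKM. The lower genes were the HGF receptor Met (0.720, 0.440 and 0.410 FPKM, limma adjusted p = 0.00162 and 0.000586), whose control samples did not overlap the miRNA samples, the protease inhibitor Spint1 (0.938, 0.541 and 0.489 FPKM) and Mst1r, the receptor of macrophage-stimulating protein (0.0549, 0.0233 and 0.00632 FPKM). These 6 genes were named after their values were seen. Among 10 other clade B serpins, relatives of Serpinb2, 4 passed in each comparison (1 higher and 3 lower with miR-144, 2 higher and 2 lower with miR-451a). Serpinb1a, an inhibitor of neutrophil proteases, had means of 1.99, 0.185 and 0.171 FPKM and was 10.8-fold and 11.7-fold lower (limma adjusted p = 5.89e-09 and 4.97e-09). Serpinb6b was higher in both comparisons, with 0.445, 0.734 and 0.798 FPKM (limma adjusted p = 0.0216 and 0.00685), and like Serpinb1a was named after its values were seen. Serpinb8 fell from 6.05 to 5.27 and 4.96 FPKM (log2 differences -0.17 and -0.24, limma adjusted p = 0.0291 and 0.00334).

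**Figure D4:**
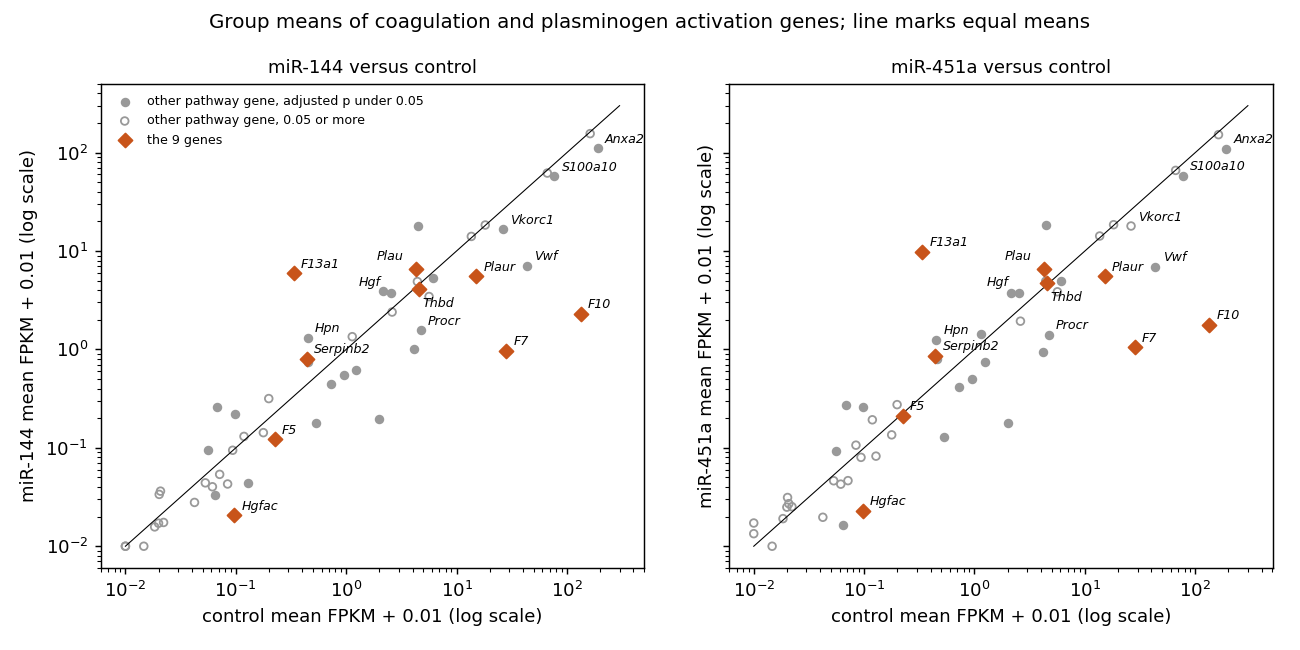
Mean FPKM + 0.01 of the 9 genes (diamonds) and 47 other pathway genes (circles, filled where the adjusted p was under 0.05) in miRNA TAMs (vertical axis, log scale) against control TAMs (horizontal axis, log scale). F7, F10 and Vwf lie farthest below the line of equal means among genes of at least 25 FPKM in control TAMs, and F13a1 lies far above it.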

How the data were processed

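RNA of sorted TAMs was sequenced on an Illumina instrument, and the authors deposited FPKM per gene for the 15 samples, whose groups and numbers come from the labels. The submitters' processing notes name FastQC 0.11.2, STAR and StringTie, without roles; genome build and annotation are not given in the sources used here. Values were used as deposited. Fragments per sample were inferred from the steps between low values, of which 42.8% to 55.7% lay on a step (10% by chance, tolerance 0.05 of a step), so that counts were not recovered. No 2 of 30 within-group pairs of samples agreed within sampling noise (lowest mean chi-square per gene 3.13).

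limma 3.58.1 (R 4.3.3) was fitted to log2(FPKM + 1) with a mean-variance trend, the 3 groups in 1 fit, over all 29540 genes, and was tested on simulated data. Exact permutation tests used the 252 splits of 5 against 5 samples. The members and gene lists were chosen with earlier results of these data known. Other pathway genes were named where they passed with a group mean of at least 5 FPKM, apart from those said to be chosen after their values were seen. Genes listed at 0 and F2r, F3, Lrp1, Klkb1, Kng1, Serpinc1 and Serpinb10 were also named outside that rule. The values of 1 other pathway gene and 1 marker gene are not reported here, but enter the counts and sums. For members of at least 1 FPKM in a group, the 3 most correlated genes were named. Coordinates are 1-based, from GENCODE M21. Alternatives were a pseudocount of 0.1, only genes whose mean reached 1 FPKM, centring on the median, quantile normalization, TPM, a replicate block, no trend, 2-group fits, exact permutation and each sample left out, and, chosen after seeing the data, scaling to an equal median. Samples with the same number correlated in their deviations from group means by -0.0122 (control and miR-144), 0.140 (control and miR-451a) and 0.101 (miR-144 and miR-451a) on average. Python 3.11.15, numpy 2.4.6, pandas 2.3.3 and matplotlib 3.10.9 were used.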

Additional observations from a re-analysis of the deposited data

Results flagged for a closer look

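In F10, miR-451a replicate 5 stood apart with 2.36 FPKM, while the nearest sample of its group had 1.73 FPKM, a gap of 0.722 of the whole range of the group. Of 27 groups of 5 samples examined in this way, 1 held such a sample, where chance gives 1.35. The same sample was the lowest of its group in F13a1, Thbd and Plau.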

How the results depend on the processing

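F7, F10, F13a1, Plaur and Hgfac kept their direction and their call in both comparisons with control under every alternative that could test them, F10 with log2 differences of -6.17 to -5.29 and F13a1 with 2.15 to 4.42. With genes of at least 1 FPKM only, 6 of the 9 members and 18 of the other pathway genes were tested, and 5 members passed with miR-144, and 11 and 13 pathway genes with miR-144 and miR-451a, because fewer genes were tested. Median centring gave 39 and 37 pathway genes, since subtraction on the log scale shifts values at 0. With 1 sample left out, 5 to 8 members passed with miR-144, 5 to 7 with miR-451a and 0 between the miRNA groups. With miR-144 the count was 5 without control replicate 2, control replicate 5 or miR-144 replicate 3. Unadjusted exact permutation tests called 2 members between the miRNA groups (F5 and F10).

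The sign of Thbd with miR-451a turned under median centring (-0.11), quantile normalization (-0.11) and scaling to an equal median (-0.10), and that of Hgfac between the miRNA groups under median centring (-0.0073). Median centring also brought calls of F5 with miR-451a (-0.16, limma adjusted p = 0.00191) and of Thbd with miR-144 (-0.25, limma adjusted p = 0.0326). With a sample left out, the small differences of F5 with miR-451a ranged from -0.049 to 0.0067, and those between the miRNA groups from -0.067 to 0.11 for Plau, from -0.026 to 0.051 for Plaur, from -0.0072 to 0.13 for Serpinb2 and from -0.0084 to 0.0089 for Hgfac. With the sample number as a replicate block, 8, 7 and 0 members and 21, 23 and 0 pathway genes passed in the 3 comparisons, and no member call changed. The depth limits what can be said of Hgfac, F5 and Serpinb2, and 5 samples per group limit what can be said of differences between the miRNA groups.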
